A study of Caenorhabditis elegans with 2 samples.

Results

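CEH-27 ChIP-seq regions just below the reproducible set were examined, that is, the regions ranked 2329 to 6000 by signal in a list of 30000 made from both replicates pooled. There were 3672 such regions of the 30000. Ranks followed the deposited signal value in descending order, with ties broken by chromosome and summit. The reproducible set, which had passed the submitters' irreproducible discovery rate (IDR) filter, coincided with the 2328 strongest pooled regions, so the members began at the next rank. ChIP-seq recovers the DNA bound by a protein with an antibody and sequences it, and a summit is the base of highest enrichment in a region. The worms were Caenorhabditis elegans of strain OP139, whose integrated fosmid adds TY1, EGFP and 3xFLAG to ceh-27, beside an unc-119(+) marker in unc-119(ed3) animals. All samples were whole young adults, males and females pooled, aged 73 hours and synchronised by starving L1 larvae after bleaching. The description names an anti-GFP antibody and the antibody field reads ceh-27, and chromatin was sonicated to a size range of 200 to 800. There were 2 biological replicates, numbered 4 and 1, of 1 transgenic line and 1 condition. No untagged strain and no control library was analysed here, and since whole animals were used the cells behind a region are unknown.

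CEH-27 belongs to the NK-2 homeodomain proteins, a family of transcription factors that includes NKX2 proteins in vertebrates and tinman in Drosophila. NK-2 homeodomains bind DNA through a core sequence, AAGTG, and several family members act in pharynx and heart development. Transfer RNA genes, where some of the regions lay, are transcribed by RNA polymerase III from control boxes inside the gene, one of which, the B box, carries the sequence GTTCGANNC.

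The sequences that follow show what the strongest members look like at their summits. Each is the 101 bases centred on the summit, on the plus strand of build ce11 (the WBcel235 assembly), in lower case with the motif in capitals. In the first group, shown because an NK-2 core lies within 50 bp of the summit, capitals mark AAGTG or its reverse complement CACTT. These regions lay upstream of yju-2, which encodes a splicing factor (chrIII:7184143-7184243), upstream of frm-3, a FERM domain gene (chrX:11569806-11569906), upstream of F25B4.8 (chrV:5695779-5695879), upstream of the globin gene glb-1 (chrIII:8923594-8923694), upstream of frm-2, another FERM domain gene (chrIII:5983133-5983233), and in intronic sequence near the innexin gene inx-11 (chrV:12491200-12491300).
yju-2: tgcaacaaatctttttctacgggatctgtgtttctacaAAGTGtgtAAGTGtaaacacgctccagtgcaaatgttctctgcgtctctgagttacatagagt
frm-3: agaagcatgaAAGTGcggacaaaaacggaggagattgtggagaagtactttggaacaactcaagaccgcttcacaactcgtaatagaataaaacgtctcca
F25B4.8: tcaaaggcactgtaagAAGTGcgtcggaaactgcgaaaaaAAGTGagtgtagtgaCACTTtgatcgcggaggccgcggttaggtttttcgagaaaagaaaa
glb-1: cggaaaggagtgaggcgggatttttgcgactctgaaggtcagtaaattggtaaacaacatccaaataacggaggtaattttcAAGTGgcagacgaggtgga
frm-2: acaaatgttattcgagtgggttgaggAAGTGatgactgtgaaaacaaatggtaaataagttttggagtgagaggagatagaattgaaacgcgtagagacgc
inx-11: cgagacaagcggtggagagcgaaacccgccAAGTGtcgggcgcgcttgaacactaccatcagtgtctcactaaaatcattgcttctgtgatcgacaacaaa

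The second group is shown because the summits lay in tRNA genes, and here capitals mark the B box sequence GTTCGANNC, which appears as its reverse complement where the gene is on the minus strand. The genes are ZK617.t1 for tRNA-Pro, in an intron (chrIV:12005576-12005676, gene on the minus strand), K08B5.t1 for tRNA-Phe, also intronic (chrX:16551465-16551565, plus strand), and F22F1.t7 for tRNA-Ile (chrX:8156635-8156735, minus strand). The tRNA-Phe window held no match to these letters, but it ends at base 16551565 while the gene runs to 16551583, so the 3' end of the gene is not in it.
ZK617.t1: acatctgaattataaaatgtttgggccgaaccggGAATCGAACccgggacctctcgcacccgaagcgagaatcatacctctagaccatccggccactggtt
K08B5.t1: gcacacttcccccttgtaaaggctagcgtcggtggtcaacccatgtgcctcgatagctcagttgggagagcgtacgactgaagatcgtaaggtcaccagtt
F22F1.t7: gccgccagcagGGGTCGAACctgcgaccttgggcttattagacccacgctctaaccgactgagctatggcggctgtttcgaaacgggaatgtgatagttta

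The members were weak regions with no break in signal at either edge. Their pooled signal ran from 57.5 to 91.7 with a median of 68.01, against a median of 134.6 over the reproducible set and 38.7 over the whole pooled list. Their −log10 q values ran from 1.53 to 2.89. The scale of the signal is not stated, and since signal chose the members these values are a description. At the upper edge, the last reproducible region (rank 2328, nearest to egl-26) had a signal of 91.73, as did the first member (rank 2329, nearest to lrk-1). The 5 regions just outside that edge, nearest to pho-4, egl-27, txt-19, grld-1 and egl-26, lay between 91.73 and 91.80. At the lower edge, the last member (rank 6000, nearest to tim-1) and the first region outside (rank 6001, nearest to ben-1) both had a signal of 57.54. The next regions outside it were nearest to ckr-2, W05F2.4, ftn-2 and T28D6.4, with signals of 57.54, 57.54, 57.53 and 57.53. Nearly all members, 3664 of 3672, were 344 bp wide, and together they covered 1.26% of the genome. Of the members, 271 (7.38%) lay within 1000 bp of a reproducible summit, so most were separate from the stronger regions.

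The 10 strongest members were all within 0.2 units of one another in signal, and they differed in gene position and in replicate support. Besides yju-2, frm-3, F25B4.8 and glb-1, they were nearest to lrk-1, which encodes a kinase related to human LRRK proteins, aptf-4, an AP-2 type transcription factor gene, eat-18, whose product acts with nicotinic receptors in the pharynx, the nuclease gene crn-7, dcp-66, which encodes a NuRD complex subunit, and mob-2, a gene of the Mob kinase activator family. The summit at yju-2 lay 143 bp upstream of the 5' end, with a signal of 34.9 in replicate 1 and 56.9 in replicate 4. The crn-7 summit lay 4 bp downstream of the 5' end, in 5' untranslated sequence, with 33.99 and 60.6. The dcp-66 summit, 157 bp upstream, had 27.3 and 65.4. The eat-18 summit, 302 bp upstream of a 5' end and within an intron, had 22.04 and 68.2. The summits nearest to aptf-4, frm-3, F25B4.8 and mob-2 were 2649 to 4114 bp from a 5' end. The strongest member of all, 941 bp upstream of lrk-1, was found in replicate 1 (33.4) and had no summit within 100 bp in replicate 4, and the same held for glb-1 (34.5 in replicate 1, 354 bp upstream). The 5 weakest members were nearest to gei-8, R148.3, kin-36, T05B9.1 and tim-1, all 792 to 4499 bp from the 5' end, and none of these summits lay in a promoter.

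Replicate support was the first question, and most members were found in both replicates, far down each replicate's own ranking. A member counted as supported when a replicate list, which also held 30000 regions, had a summit within 100 bp. Of the 3672 members, 2480 (67.5%; 95% exact binomial interval 66.0% to 69.1%, counting error only) were supported in both lists, 819 (22.3%) in replicate 4 alone, 324 (8.82%) in replicate 1 alone, and 49 (1.33%) in neither. Over the whole pooled list the share in both was 27.7%, the share in replicate 1 was 47.6% and the share in replicate 4 was 65.2%. The members' own shares were 76.4% in replicate 1 and 89.8% in replicate 4. The reproducible set had 93.9% in both, and the 3672 regions next below the members, ranked 6001 to 9672, had 42.6%. The pooled list was made from these same replicates, so these shares describe the lists and were not tested.

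Support declined steadily with rank inside the members. In 6 successive groups of 612 members, the share in both lists was 81.9%, 78.1%, 71.6%, 60.6%, 59.8% and 53.3%. The share found in replicate 1 went from 87.4% in the first group to 65.4% in the last. The share found in replicate 4 went from 93.6% to 85.8%, so the lists of the replicates drew apart toward weaker regions. The share also depended on the tolerance, being 44.9% with summits within 50 bp, 81.8% within 200 bp and 78.5% with a 50% reciprocal overlap of the intervals. Within the 6000 strongest regions of each replicate, support in both lists dropped to 15.1%.

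**Figure D1:**
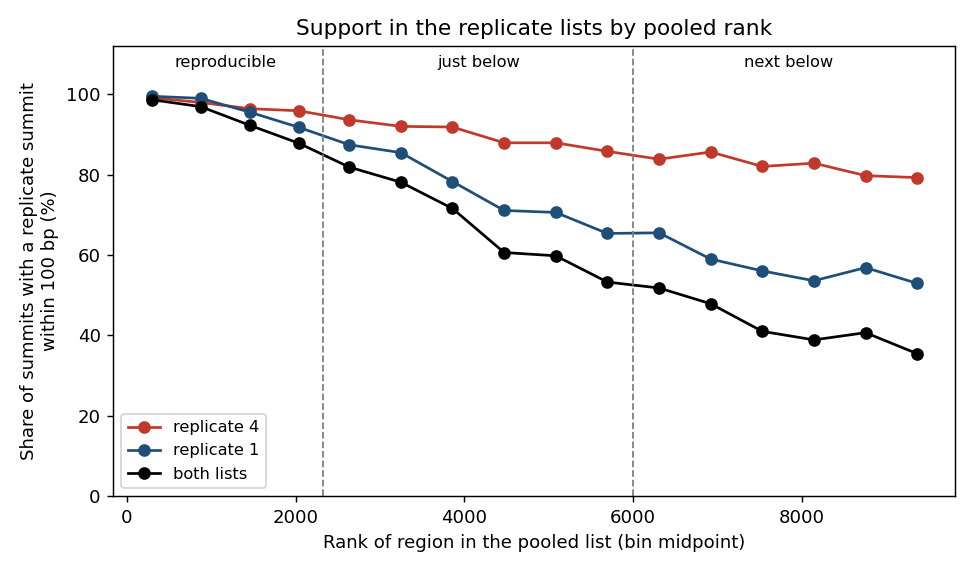
Share of pooled summits with a summit within 100 bp in replicate 1, replicate 4 or both lists (%), against rank in the pooled list; each point is a group of 582 regions (reproducible set) or 612 regions, at the midpoint of its ranks, and dashed lines mark ranks 2328 and 6000. Among the members, support in both lists goes from 81.9% to 53.3%, and replicate 4 stays above replicate 1 throughout.

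Few members were strong in both replicates at the same time, which their choice by pooled rank largely fixes. The 2804 members found in replicate 1 had signals of 13.7 to 82.6 there (median 26.6), and the 3299 found in replicate 4 had 18.3 to 101.5 (median 45.3). Among the members in both lists, the signal in replicate 4 was the higher for 2080 of 2480, with a median ratio of 1.64, close to the 1.76 of the reproducible set, so signals are best read within a list. The members found in replicate 1 had a median rank of 5905 there, and those found in replicate 4 a median rank of 4690. Only 5 of the 3672 members stood among the 2328 strongest regions of both replicates, while 369 did so in replicate 1 and 323 in replicate 4. Within the top 6000 of both replicates there were 553 members (15.1%), against 3 of the regions next below. The pooled list was made from these same replicates, so such counts describe the choice of ranks and were not tested. Matched summits lay close together, at a median of 24 bp for replicate 1 and 13 bp for replicate 4.

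**Figure D2:**
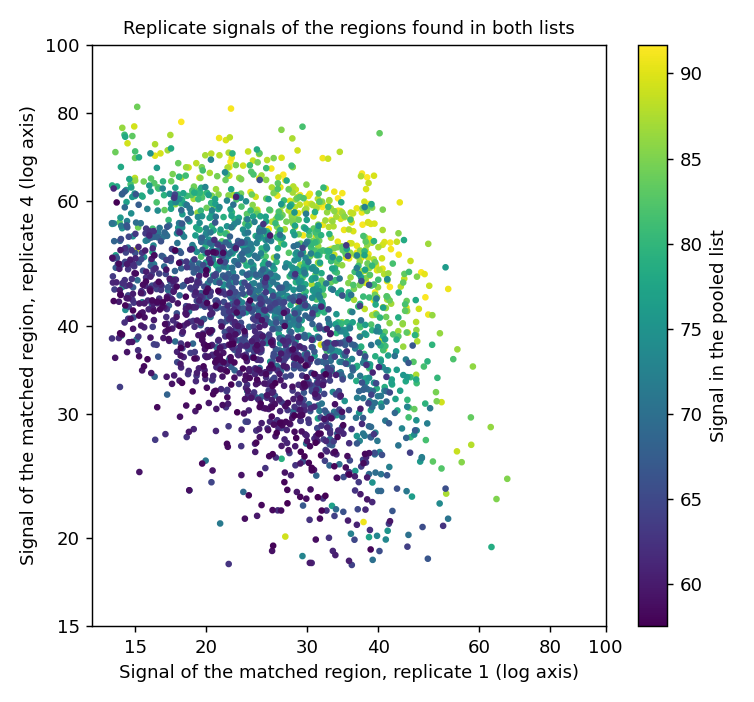
Signal of the matched region in replicate 1 (x axis, log scale) and replicate 4 (y axis, log scale) for the 2480 members found in both lists, coloured by pooled signal (no unit stated). The points form a band in which a high value in one replicate goes with a low one in the other, and the choice of members within a narrow range of pooled signal fixes this shape, so no correlation is given.

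The members best supported in both replicates were named by their poorer rank. First came a region in an intron of ncl-1, a TRIM-NHL gene known for restraining nucleolar size, which ranked 2054 in replicate 1 (40.2) and 1575 in replicate 4 (74.9). Next were regions 6228 bp upstream of F13D11.3 (ranks 2150 and 2050) and 2076 bp upstream of the phosphoglycolate phosphatase gene pgph-2 (2273 and 2155). They were followed by the frm-3 region (2304 and 2065) and one 1232 bp upstream of F41D9.2, also near a tRNA gene (2320 and 2245). The remainder were nearest to K02D10.4, Y46G5A.47, cacn-1, a cactin gene, try-6, a trypsin-like protease gene, and F25B4.8. The summit nearest to try-6 lay 1419 bp upstream of it, in coding sequence of let-607, a gene that also had a reproducible promoter summit. Of these 10 regions, those of K02D10.4, Y46G5A.47 and cacn-1 lay in promoters, with summits 135 to 644 bp upstream.

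Regions missing from 1 list were not always weak in the other. The member 2678 bp upstream of ZK470.2 ranked 1217 in replicate 4 with a signal of 86.4 and had its nearest replicate 1 summit 2512 bp away. The members at F53B3.5 (72.1 in replicate 4) and ints-8, which encodes a subunit of the Integrator complex (69.6 in replicate 4), had replicate 1 summits 182 and 143 bp away, outside the 100 bp tolerance. In the other direction, the member 479 bp upstream of sms-3, a sphingomyelin synthase gene, ranked 1161 in replicate 1 (52.7) and had its nearest replicate 4 summit 259 bp away. For the 49 members in neither list, the nearest summits lay at medians of 179 bp in replicate 1 and 141 bp in replicate 4, and 18 of the 49 had summits within 200 bp in both. One of the 49 was the region at C47F8.9, described with the snRNA genes.

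Promoters were the next question, and the members held fewer than the reproducible set and more than the regions next below. Promoters were windows around each annotated 5' end of protein-coding genes, with 1000 bp on the upstream side and 200 bp on the downstream side, and they cover 26.2% of the genome. Of the 3672 members, 1334 (36.3%) had their summit in a promoter, against 31.2% over the whole pooled list. The reproducible set had 1317 of 2328 (56.6%), an odds ratio of 0.438 (95% interval 0.393 to 0.488) with an adjusted p of 1.61e-52. The regions next below had 1104 of 3672 (30.1%), an odds ratio of 1.33 (1.20 to 1.46) with an adjusted p of 3.04e-08. These and the following comparisons of position used Fisher's exact test (two-sided; p-values adjusted by Benjamini-Hochberg over 20 tests), and their units are regions, not animals. Ranked in replicate 4 alone, the odds ratios were 0.426 and 1.31, and replicate 1 gave 0.468 and 1.22. In such values for 1 replicate, here and below, all sets are the same ranks of that replicate's list. Its 2328 strongest regions thus stand in for the reproducible set.

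The promoter share went down within the members too. In the 6 groups of 612 it was 43.95%, 36.8%, 39.7%, 34.2%, 30.6% and 32.8%, from the strongest to the weakest. The last group of the reproducible set had 49.7%, so the values ran on from it, and the last members were level with the 32.2% of the first regions below. Promoter summits of the members had a median distance to the 5' end of 215.5 bp (quartiles 94 and 455.75 bp), and 76.2% lay on the upstream side. The median over the reproducible set was 212 bp with 90.8% upstream, and over the regions next below it was 245.5 bp with 68.1% upstream. Promoter share was 38.2% among the members in both replicate lists, 36.1% among those in replicate 1 alone, 30.2% among those in replicate 4 alone, and 23 of the 49 in neither.

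**Figure D3:**
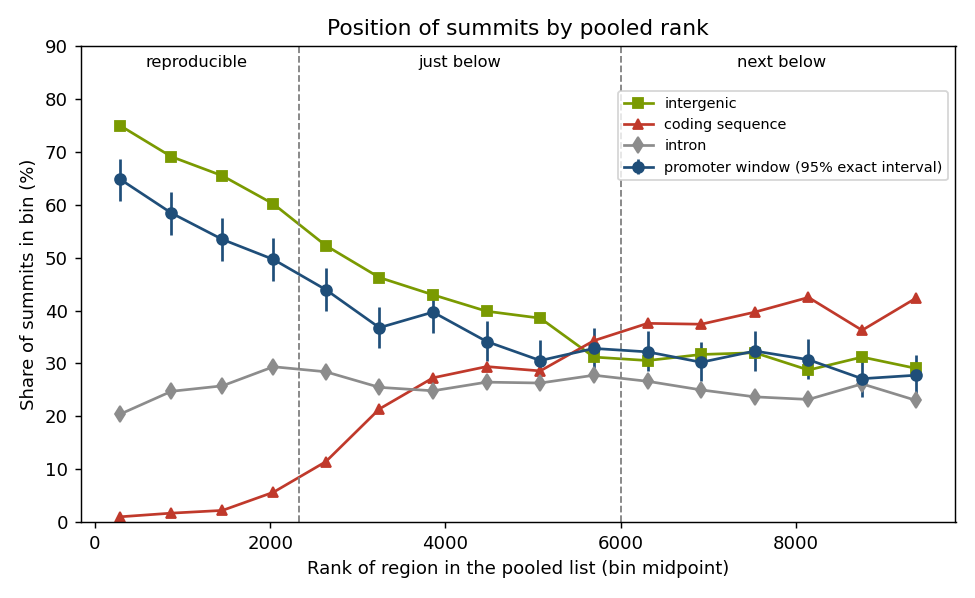
Share of summits (%) in promoter windows (blue, with 95% exact binomial intervals), intergenic sequence, introns and coding sequence, against rank in the pooled list, in groups of 582 (reproducible set) or 612 regions; promoter windows overlap the other classes. Across the members the intergenic share goes from 52.3% to 31.2% and the coding share from 11.4% to 34.3%, while introns stay between 24.8% and 28.4%.

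By odds ratio, coding sequence showed the largest difference in position from the reproducible set, and by difference in share intergenic sequence did. Of the members, 933 (25.4%) had their summit in coding sequence, close to the 24.3% of the genome that is coding. The reproducible set had 62 of 2328 (2.66%), an odds ratio of 12.4 (9.56 to 16.5) with an adjusted p of 5.50e-143. The regions next below had 1443 (39.3%), an odds ratio of 0.526 (0.476 to 0.582) with an adjusted p of 1.94e-36. Against the 2328 strongest regions of the same list, the odds ratio was 7.99 ranked in replicate 4 alone and 5.41 in replicate 1 alone. The coding share of the members was 33.1% and 23.6% in these lists. The size of the odds ratio therefore depends on the list and on both sets compared. Over the 6 groups of members the coding share was 11.4%, 21.4%, 27.3%, 29.4%, 28.6% and 34.3%.

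Intergenic sequence ran the opposite way. It held 1537 members (41.9%), against 67.4% of the reproducible set (odds ratio 0.348, adjusted p 4.85e-83), 30.6% of the regions next below (odds ratio 1.64, adjusted p 3.08e-23) and 37.3% of the genome. Introns held 975 members (26.6%), against 25.1% and 24.6% in the other sets, with odds ratios of 1.08 (0.957 to 1.22) and 1.11 (0.995 to 1.23) that did not pass the test, though ranked in replicate 1 alone the first was 1.18 with an adjusted p of 0.0108. The 5' untranslated sequence held 132 members (3.59%), which passed against neither set. Against the regions next below its odds ratio was 1.29 (adjusted p 0.0902), and it passed when ranked in replicate 4 alone (1.37, adjusted p 0.0453) and in replicate 1 alone (1.52, adjusted p 0.00455). The 3' untranslated sequence held 90 members (2.45%), above the 0.730% of the reproducible set (odds ratio 3.42, adjusted p 6.53e-07), but ranked in replicate 4 alone the odds ratio was 1.55 with an adjusted p of 0.117. Of the 2338 members outside promoters, 804 were intergenic, 719 coding and 731 intronic.

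Coding members had less replicate support and more G and C bases than the intergenic ones. Of the 933 coding members 59.9% were in both replicate lists, against 70.9% of the 1537 intergenic members. The difference was larger in replicate 1, with 69.6% of coding and 79.9% of intergenic members, than in replicate 4, with 88.9% and 89.4%. Coding summits had 49.3% ± 7.03 (SD over 933 regions) G and C bases in 101 bp, intergenic ones 46.2% ± 7.49, all members 46.9% ± 7.71 and the genome 35.4%. The part of base composition in these results was not tested.

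The coding members lay in 870 of 19973 protein-coding genes (4.36%), and 59 of these genes held more than 1. The count of such members and the genes named here were chosen after their values were seen. The most in any gene was 3, in mnk-1, which encodes a kinase that acts on a translation factor, ncl-1, W07E11.1 and let-805, which encodes an epidermal attachment protein. The strongest of the mnk-1 summits had a pooled signal of 85.2, with 67.3 in replicate 1 and 24.3 in replicate 4. The strongest of the ncl-1 summits had 77.1, with 24.1 and 57.1, and all 3 of ncl-1 were in both lists. Of the 870 genes with a coding member, 168 also had a reproducible promoter summit, beside 1691 of all 19973 genes (8.47%), and this overlap was not tested.

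Gene families differed in their coding members. Over all genes there were 37.8 coding members per Mb of coding sequence. Genes of the small ribosomal subunit had 466 per Mb (7 members in 7 of 31 genes), those of the large subunit 326 (8 of 50 genes), and respiratory chain genes 269 (10 members in 9 of 46 genes). Vacuolar ATPase genes had 210 (6 members in 5 of 22 genes) and proteasome genes 190 (7 members in 6 of 33 genes). Cuticle collagens, the structural proteins of the worm's outer coat, had 156 per Mb (27 of 176 genes, 15.3%). The collagen summits had pooled signals of 57.8 to 87.3 with a median of 70.2, and 14 of the 27 genes had a member in both lists. The strongest was in col-177 (87.3; 26.9 in replicate 1 and 58.0 in replicate 4), and others were in dpy-17 (77.7; 26.8 and 38.96), whose mutants are short, and in sqt-3 (77.2; 57.0 in replicate 4, absent from replicate 1). Collagen genes resemble one another in sequence, and how reads shared between copies were placed was not examined. The coding sequence of collagens had 54.5% G and C bases and that of both ribosomal lists 53.3% and 53.8%, against 42.9% over all genes. Histone genes, with 53.2% G and C bases, had 37.7 coding members per Mb (1 member in 1 of 72 genes), near the value over all genes. Serpentine chemoreceptor genes had 3.26 per Mb (4 of 1231 genes), and homeobox genes (102), F-box genes (322) and major sperm protein genes (31; 51.3% G and C bases) had no coding member. Histone and major sperm protein genes hold 26506 and 11487 bp of coding sequence, so their values rest on 1 member and none.

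For protein-coding promoters, 1512 of 19973 genes (7.57%) had a member summit. The reproducible set marked 1691 genes, and 161 genes had both, which is 10.6% of the first and 9.52% of the second. The members thus added 1351 genes, or 7.39% of the 18282 genes with no reproducible promoter summit, and the 2 sets together marked 3042 (15.2%). Of the 1334 promoter members, 258 (19.3%) lay in the windows of more than 1 gene, so that a region cannot be assigned to either neighbour. More than 1 member lay in the promoters of 82 genes. Beside the 7.57% over all genes, the shares of 29 gene lists are given as counts without a test, and the median pooled signal of the best member was 70.5 over all 1512 genes. The regions next below had a promoter summit at 1171 genes (5.86%). Windows were drawn at every annotated 5' end, so a promoter summit can lie inside its gene. Members named below at unc-31, pha-4, unc-62, rsp-8, tars-1, rpn-6.1, dnj-20, rps-6 and srh-2 are of this kind.

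**Figure D4:**
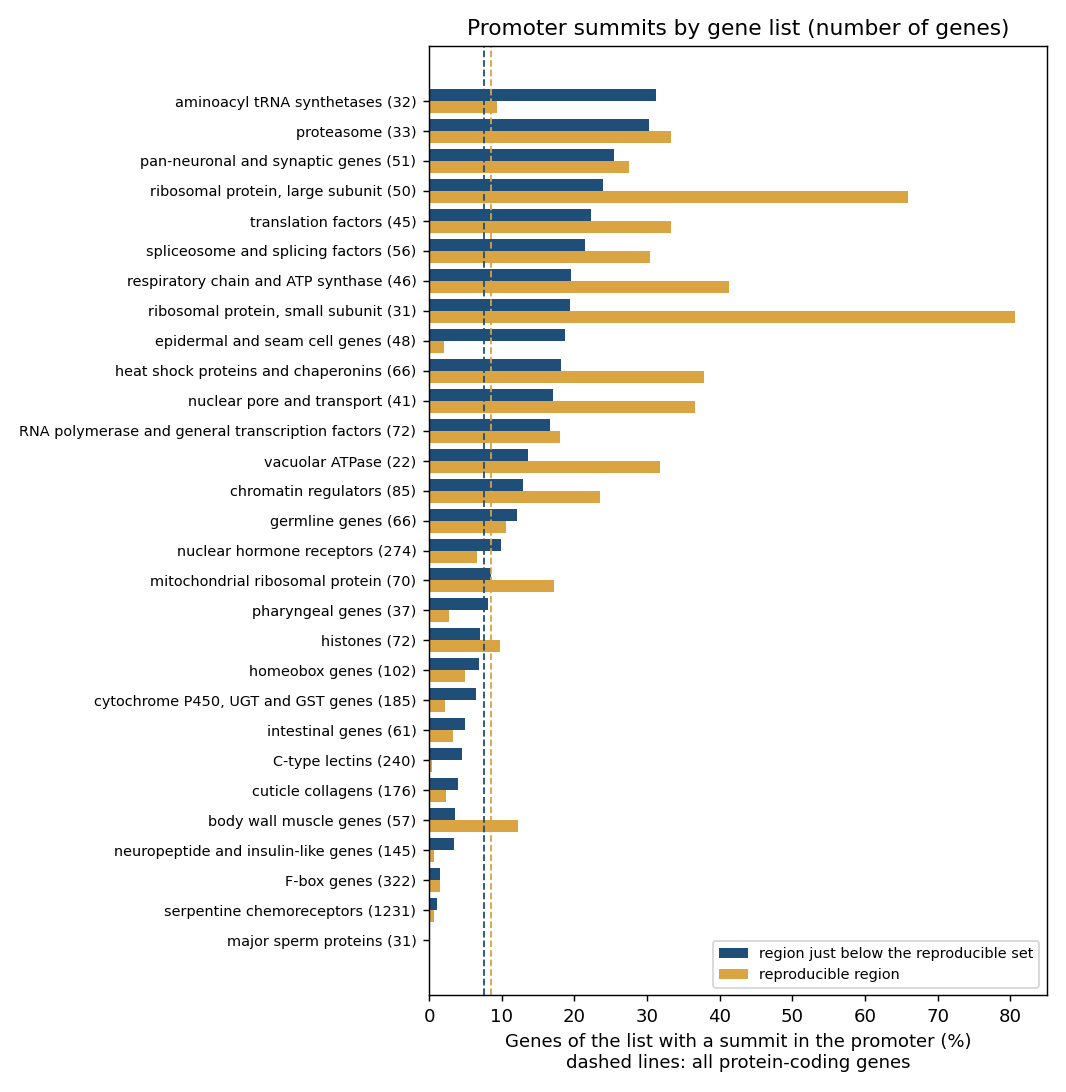
Share of genes (%) in each of 29 lists, chosen by gene symbol, with a promoter summit among the members (blue bars) or in the reproducible set (yellow bars); numbers in parentheses are genes in the list and dashed lines mark all protein-coding genes (7.57% and 8.47%). The 2 longest blue bars are aminoacyl tRNA synthetases (31.2%) and the proteasome (30.3%), and ribosomal protein genes have long yellow bars (66.0% and 80.6%).

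Genes of the translation machinery outside the ribosome had many members. Of 32 aminoacyl tRNA synthetase genes, whose products load amino acids onto tRNAs, 10 (31.2%) had a member, 3 a reproducible summit and 3 (9.38%) a region next below. The strongest were at fars-1 for phenylalanine (89.2; 38.0 in replicate 1 and 47.9 in replicate 4; summit 909 bp upstream), tars-1 for threonine (85.1; 31.4 and 55.6), rars-1 for arginine (79.6; 34.01 and 40.4) and yars-2 for tyrosine (75.01; 21.2 and 51.5). The rars-1 region lay 998 bp from its 5' end, at the limit of the window, and 167 bp upstream of rpb-8, an RNA polymerase subunit gene. Ranked in replicate 4 alone 6 synthetase genes had such a region, and in replicate 1 alone 5. With promoters of 500 bp upstream the count was 5, so it depends on the pooling and on the window. The proteasome and translation factor counts stayed at 10 with that window.

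Of 45 translation factor genes, 10 (22.2%) had a member, 15 a reproducible summit and 5 (11.1%) a region next below. None had both a member and a reproducible summit, beside 10.6% of all genes with a member. The member at eif-3.I, an initiation factor subunit gene, had 90.4 and was in replicate 1 alone (27.03), and eif-1.A had 83.1 (41.0 in replicate 1 and 39.2 in replicate 4). Those at ife-4, an eIF4E gene, and eif-2Bbeta had 79.3 (16.8 and 64.01) and 77.8 (35.5 and 44.1). The count was 6 ranked in replicate 4 alone and 13 in replicate 1 alone.

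Ribosomal protein genes were mostly in the reproducible set, and the members added a part of the remainder. Of 50 large subunit genes 33 had a reproducible summit and 12 (24.0%) a member, with 4 genes having both, and 3 (6.0%) had a region next below. The members at rpl-19 (89.7; 39.4 in replicate 1 and 55.8 in replicate 4), rpl-13 (86.1; 62.9 and 28.7), rpl-18 (82.3; 25.4 and 53.4) and rla-0 (78.7; 43.3 and 41.1) lay 147 to 259 bp upstream of an annotated 5' end. For rpl-19 that end is inside the gene, and the summit lay in an intron. None of these 4 genes had a reproducible summit as well. Of 31 small subunit genes 25 had a reproducible summit, 6 (19.4%) a member and 1 (3.23%) a region next below. With members at least 1000 bp from any reproducible summit the counts were 6 large and 3 small subunit genes. Among the 6 small subunit genes with a member, rps-9 (86.3; 49.7 and 41.4) shares its region with lsm-1, a gene of mRNA decay, and rps-5 had 77.5 (14.99 and 61.0). The rps-6 member (71.7; 32.4 and 37.7) lay 32 bp downstream of a 5' end of a gene that also had a reproducible summit, and the rps-16 member (64.3) was in neither replicate list. Mitochondrial ribosomal protein genes had members at 6 of 70 (8.57%), led by mrpl-40 (86.8) and mrpl-47 (76.9), and the count was 3 ranked in replicate 4 alone and 10 in replicate 1 alone.

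Genes of protein turnover and folding were also well represented. The proteasome, which degrades tagged proteins, had members at 10 of 33 genes (30.3%) and reproducible summits at 11. No gene had both, beside 10.6% of all genes with a member. The regions next below were at 8 of the 33 (24.2%), so a high share was not particular to the members. The strongest proteasome members were at the regulatory subunit genes rpn-6.1 (87.9; 58.2 in replicate 1 and 27.1 in replicate 4), rpn-2 (86.7; 36.8 and 50.1) and rpn-5 (79.1; 37.3 and 37.3), and at the core subunit gene pas-3 (83.5; 31.2 and 50.3). The 5' end at rpn-6.1 lies inside the gene. The proteasome count was 11 ranked in replicate 4 alone and 8 in replicate 1 alone. Of 66 heat shock protein and chaperonin genes, 12 (18.2%) had a member, 25 a reproducible summit and 4 (6.06%) a region next below. Here too no gene had both a member and a reproducible summit. The strongest members of this list were at hsp-70 (82.9; 34.6 and 51.1), the prefoldin gene pfd-6 (73.9; 53.4 in replicate 1 alone), dnj-5 (73.3; 24.9 and 55.05) and dnj-20 (71.8, in neither list). Ranked in replicate 4 alone that count was 7.

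Lists of transcription, RNA and energy genes lay above the share of all genes as well. Among the regions next below, spliceosome genes had 12.5% and RNA polymerase and general transcription factor genes 11.1%, beside 5.86% of all genes. Respiratory chain genes had 4.35% there. Of 56 spliceosome genes 12 (21.4%) had a member, led by the Sm protein gene snr-2 (86.5; 55.01 in replicate 1 and 37.0 in replicate 4), lsm-1 (86.3), rsp-8 (82.3; 62.8 in replicate 4 alone) and rnp-1 (79.6; 52.2 in replicate 4 alone). Of 72 RNA polymerase and general transcription factor genes 12 (16.7%) had one, led by taf-11.3 (88.2; 74.3 in replicate 4 alone), rpac-19 (85.04; 64.4 and 22.7), the Mediator gene mdt-6 (81.8; 26.8 and 58.0) and rpb-8 (79.6), and the count was 7 ranked in replicate 4 alone. The taf-11.3 summit of signal 88.2 lay 973 bp upstream, in coding sequence of sip-1. Of 46 respiratory chain genes 9 (19.6%) had one, led by the complex I gene nuo-2 (90.1; 39.6 and 41.6), hpo-18 (80.1; 31.0 and 52.4), ucr-1 of complex III (76.4; 45.8 and 22.9) and the cytochrome c gene cyc-2.1 (72.9; 52.2 in replicate 4 alone). That count was 6 ranked in replicate 1 alone.

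Smaller counts were found in nuclear and vacuolar genes. The regions next below were at 18.2% of vacuolar ATPase genes, 9.76% of nuclear pore and transport genes and 7.06% of chromatin regulator genes. Of 41 nuclear pore and transport genes 7 (17.1%) had a member, led by npp-19 (81.7), ran-1 (71.1), which encodes the Ran GTPase, ran-4 (70.5) and npp-16 (62.9). Of 22 vacuolar ATPase genes 3 (13.6%) had one, namely vha-4 (83.4), vha-16 (76.9) and vha-2 (58.9). Ranked in either replicate alone, 5 vacuolar ATPase genes had one. Of 85 chromatin regulator genes 11 (12.9%) had one, led by the SWI/SNF genes swsn-6 (85.3; 39.01 in replicate 1 and 58.8 in replicate 4) and swsn-4 (79.8; 20.04 and 61.7), jmjd-1.2 (77.96; 33.3 in replicate 4 alone) and set-32 (76.8). The count was 7 ranked in replicate 1 alone. Histone genes had members at 5 of 72 (6.94%), led by his-42 (88.4, in neither list) and his-62 (73.5).

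Among the tissue lists, the neuronal one had the largest share of genes with a member. Of 51 pan-neuronal and synaptic genes 13 (25.5%) had a member, 14 a reproducible summit and 9 (17.6%) a region next below. Of the 13 genes with a member, 1 also had a reproducible summit. The strongest were at unc-31, needed for release of dense core vesicles (89.5; 31.7 in replicate 1 and 37.6 in replicate 4), unc-18, which acts in synaptic vesicle fusion (87.7; 21.8 and 67.0), unc-104, a kinesin that carries synaptic vesicles (84.6; 29.1 and 48.5), and snb-1, which encodes synaptobrevin (79.8; 58.9 in replicate 4 alone). The unc-31 summit lay in an intron, 238 bp upstream of an annotated 5' end inside the gene. The unc-31 region is the one at the snRNA gene ZK897.4, and the unc-104 region the one at linc-73. The neuronal count was 11 ranked in replicate 4 alone and 16 in replicate 1 alone.

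Among epidermal genes, more had a member than a reproducible summit. Of 48 epidermal and seam cell genes 9 (18.8%) had a member and 1 (2.08%) had a reproducible summit, at ajm-1, which encodes an apical junction protein. The regions next below were at 4 of the 48 (8.33%). The ajm-1 member (89.1; 24.6 in replicate 1 and 58.4 in replicate 4) lay 356 bp upstream of a 5' end inside the gene. Those at let-805 (86.6; 20.8 and 62.4), the cuticle collagen gene bli-1 (81.9; 37.3 and 37.3) and nhr-23, a nuclear receptor gene of the moulting cycle (80.8; 14.4 and 74.5), lay 20, 402 and 85 bp upstream of an annotated 5' end. For let-805 (summit in an intron) and nhr-23 (summit in 5' untranslated sequence) that end also lies inside the gene. Ranked in replicate 4 alone the count was 6, and ranked in replicate 1 alone it was 3. The difference between the sets was not tested for this list.

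The other tissue lists ranged from 3.51% to 12.1%. Germline genes had 8 of 66 (12.1%), led by him-10, a kinetochore gene (90.6), spo-11, which makes the breaks that start meiotic recombination (79.8, in a region shared with swsn-4), the P granule gene pgl-3 (74.1) and him-17 (70.8), and the count was 2 ranked in replicate 1 alone. Pharyngeal genes had 3 of 37 (8.11%), which included the homeobox gene ceh-34 (62.2; 21.2 in replicate 1 and 44.6 in replicate 4; summit 6 bp upstream) and pha-4, the FoxA gene of pharynx identity (59.8; 15.6 and 43.0), and the count was 1 ranked in replicate 1 alone. The pha-4 summit lay in an intron, upstream of a 5' end inside the gene. The regions next below were also at 3 of the 37 pharyngeal genes. Muscle genes had 2 of 57 (3.51%), the myosin light chain genes mlc-1 (76.6; 20.4 and 57.5) and mlc-2 (75.8; 14.1 and 56.9), which neighbour each other, and 7 ranked in replicate 4 alone. Intestinal genes had 3 of 61 (4.92%), with asp-1 (74.9) and fat-3 (69.4) the strongest, and 1 ranked in replicate 4 alone. Cuticle collagen promoters had 7 of 176 (3.98%), led by bli-1 and col-150 (75.99).

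Large gene families were given in the same way. Homeobox genes had members at 7 of 102 (6.86%), led by the Meis gene unc-62 (86.2; 28.6 in replicate 1 and 56.7 in replicate 4) and lim-4 (80.04; 22.4 and 56.6), and 11 had one ranked in replicate 4 alone. Nuclear hormone receptor genes had 27 of 274 (9.85%), led by nhr-156 (88.1) and nhr-237 (86.1). Serpentine chemoreceptor genes had 13 of 1231 (1.06%), led by srz-97 (86.7, in a region shared with clec-57) and srh-2 (73.2), and 5 with promoters of 500 bp upstream. C-type lectin genes had 11 of 240 (4.58%), led by clec-57 and clec-139 (86.1), against 1 in the reproducible set and 10 (4.17%) in the regions next below. The lectin count was 2 ranked in replicate 1 alone, and 2 with promoters of 500 bp upstream. F-box genes had 5 of 322 (1.55%), led by fbxa-202 (85.96) and fbxa-69 (71.6). Neuropeptide and insulin-like genes had 5 of 145 (3.45%), led by nlp-4 (89.2) and flp-23 (88.8). Cytochrome P450, UGT and GST genes had 12 of 185 (6.49%), led by gst-5 (87.1) and ugt-50 (79.9), and 7 ranked in replicate 1 alone. None of 31 major sperm protein genes had a member.

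Among noncoding RNA genes, tRNA genes were the class with the largest share of its genes near a member, and that share was below the one for the reproducible set. A gene counted when a member summit lay within 200 bp of it, and 824 of 24789 noncoding genes (3.32%) did. Of 612 tRNA genes 130 (21.2%) had a member, 238 (38.9%) had a reproducible summit and 34 (5.56%) a region next below, and 3 had both a member and a reproducible summit. Counted by region, 118 members (3.21%) lay at tRNA genes, against 1.47% of the whole pooled list. The reproducible set had 218 (9.36%; odds ratio 0.321, 95% interval 0.253 to 0.407, adjusted p 1.25e-22). The regions next below had 31 (0.844%; odds ratio 3.90, 2.60 to 6.01, adjusted p 5.52e-13). When the members ended at rank 4000, the comparison with as many regions next below them gave 1.37 with an adjusted p of 0.228. Ranked in replicate 4 alone it was 2.73, and in replicate 1 alone 3.24.

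The tRNA members were most frequent at the top of the ranks and had their summits in or beside the genes. The first 612 members included 40 at tRNA genes (6.54%), and each later group of 612 had 10 to 22. Summits lay a median of 10 bp inside the tRNA gene counted from its 5' end, with quartiles of 24.5 bp upstream and 43 bp inside, and 63 of the 130 genes held a summit within their own bounds. Of the 118 regions, 91 (77.1%) were in both replicate lists, and 22 lay in promoters of protein-coding genes. The strongest, at ZK617.t1, had a pooled signal of 91.5 and signals of 47.5 in replicate 1 and 47.6 in replicate 4, with its summit 43 bp into the gene. That at K08B5.t1 had 91.1 (39.5 and 44.6; 4 bp into the gene), and that at F22F1.t7 had 91.1 (31.8 and 59.6; 22 bp into the gene).

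The tRNA genes of all amino acids had members. A product name was found for 607 of the 612 genes. The share with a member was 42.1% for tyrosine (8 of 19 genes, with 3 reproducible), 37.0% for aspartate (10 of 27) and 35.0% for asparagine (7 of 20). At the other end it was 2 of 20 for histidine, 12.8% for serine (5 of 39), 14.6% for glutamate (6 of 41) and 14.7% for alanine and for threonine (5 of 34 each). Threonine tRNA genes were instead mostly in the reproducible set, at 21 of 34 (61.8%), and with both sets 73.5% of them were marked. The X chromosome carried 276 of the 612 tRNA genes and had members at 58 of them (21.01%), while the autosomes ranged from 15.2% on chromosome I to 28.2% on chromosome V. Identical tRNA gene copies share reads, so a count for a product may divide reads among copies.

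**Figure D5:**
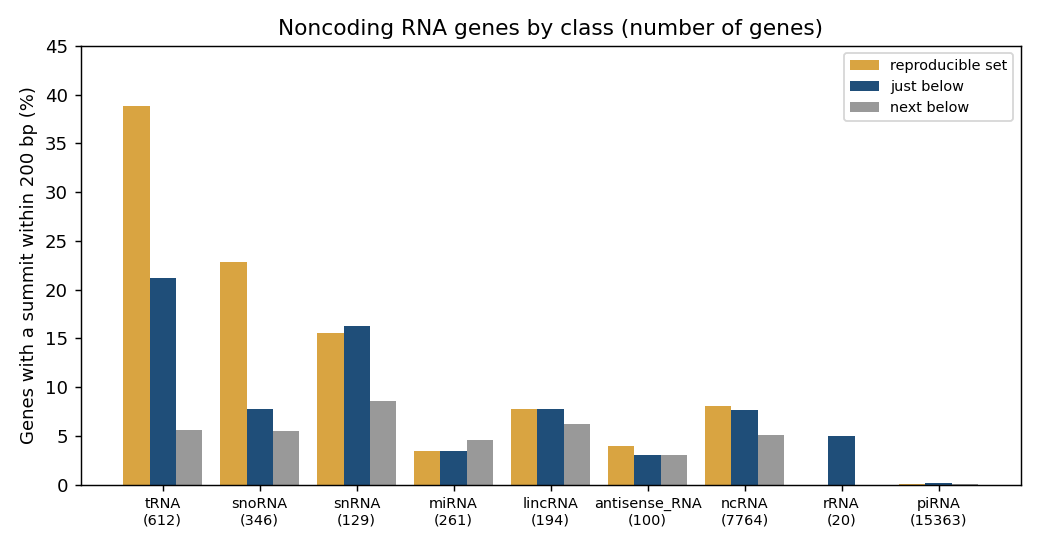
Share of noncoding RNA genes (%) of each class with a summit within 200 bp, for the reproducible set (yellow), the members (blue) and the regions next below (grey); numbers in parentheses are genes in the class. The tRNA genes go from 38.9% to 21.2% to 5.56% over the 3 sets, and snoRNA genes from 22.8% to 7.80% to 5.49%.

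Small nucleolar RNA genes, whose products guide RNA modification, were far rarer among members. Of 346 snoRNA genes 27 (7.80%) had a member and 79 (22.8%) a reproducible summit. By region, 26 members (0.708%) compared with 79 (3.39%) of the reproducible set, an odds ratio of 0.203 (0.125 to 0.321) with an adjusted p of 6.89e-14. The difference from the 19 regions next below (odds ratio 1.37, 0.729 to 2.63, adjusted p 0.411) did not pass. The strongest snoRNA members were at W04D2.7 (91.5; 27.5 in replicate 1 and 64.3 in replicate 4), whose sequence is the one printed for inx-11, T23G11.12 (91.4; 41.4 and 46.2) and T28B8.11 (90.4; 30.2 and 61.0). Their summits lay 30, 111 and 140 bp upstream of the annotated gene.

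Small nuclear RNA genes, which include the spliceosomal and spliced leader RNAs, had members at 21 of 129 (16.3%) and reproducible summits at 20. The region shares, 0.572% against 0.945% and 0.272%, gave odds ratios of 0.603 (0.315 to 1.15) and 2.11 (0.948 to 5.02) that did not pass, though the first was 0.365 (adjusted p 0.0120) ranked in replicate 1 alone. The strongest were at ZK897.4 (89.5; 31.7 in replicate 1 and 37.6 in replicate 4), inside unc-31, and at sls-2.14, a spliced leader gene (89.5; 34.4 and 56.7). The third, at C47F8.9 (88.4), was in neither replicate list and is also the strongest member upstream of his-42. Ranked in replicate 1 alone 11 snRNA genes had such a region, and they are a family of near copies, so reads may be shared. With members at least 1000 bp from any reproducible summit, 12 snRNA genes had one.

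The remaining classes had members at smaller shares of their genes. MicroRNA genes had members at 9 of 261 (3.45%), led by cel-mir-4936 (83.7; 44.8 in replicate 1 and 43.3 in replicate 4) and by cel-mir-37 and cel-mir-38, of the mir-35 family, which share 1 region (66.4; 23.5 in replicate 1 alone), and 5 had one at least 1000 bp from any reproducible summit. Long intergenic RNA genes had 15 of 194 (7.73%), led by linc-1 (85.9), linc-73 (84.6) and linc-38 (84.6). Antisense RNA genes had 3 of 100 (3.00%), namely anr-52 (88.9), anr-54 (75.9) and W10G6.5 (62.8). Other ncRNA genes had 598 of 7764 (7.70%), and 204 of those genes had their members in protein-coding promoters throughout. Led by C35C5.18, F25B4.15 and F48C11.5, they took in the frm-3, F25B4.8 and mob-2 regions (91.6 each). Of 20 ribosomal RNA genes only rrn-4.15 (5.00%) had a member (63.5), and it had no summit within 100 bp in replicate 1. Among 15363 piRNA genes 20 (0.130%) had one, led by 21ur-14854, 21ur-8766 and 21ur-12380, and the last lies in the rpl-19 region. Ranked in replicate 1 alone, 35 piRNA genes had such a region, as did 6 antisense RNA genes and no ribosomal RNA gene.

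The NK-2 core AAGTG, searched on both strands within 50 bp of the summit, was more frequent at the summits than beside them. It was found at 1038 of 3672 member summits (28.3%) and in 780 (21.2%) of the equal windows centred 300 bp to lower coordinates. The odds ratio of the discordant pairs was 1.48, with a 95% interval of 1.32 to 1.65 and p 1.82e-12 in an exact McNemar test (two-sided). The reproducible set had the core at 27.1% of summits and 20.9% of flanks (odds ratio 1.42). The regions next below had it at 24.2% and 20.1% (odds ratio 1.27), so the excess was not particular to the members. Over all pooled regions the share was 24.1%, and over successive 101 bp windows of the genome 20.5%. The longer TNAAGTG, which contains the core, was at 7.65% of member summits and 5.36% of flanks, against 5.77% of all pooled regions. For the reproducible set these shares were 6.53% and 4.98%, and for the regions next below 6.24% and 4.52%.

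The core was about as frequent in members as in stronger regions. The reproducible set had 27.1%, and the odds ratio of members against it was 1.06 (0.944 to 1.20; adjusted p 0.315 by two-sided Fisher's exact test over the 2 comparisons). The regions next below had 24.2%, for an odds ratio of 1.24 (1.11 to 1.38; adjusted p 1.37e-04). That last difference did not pass when members were ranked in replicate 4 alone (1.09, adjusted p 0.194) or in replicate 1 alone (1.09, adjusted p 0.203). In the 6 groups of 612 members the core share was 33.7%, 25.8%, 28.6%, 27.6%, 25.7% and 28.3%. It was 28.5% in promoters and 28.1% outside them, and 28.6% in members of both replicate lists and 27.6% in the others. By position it was highest in 5' untranslated sequence (35.6%, flanks 22.7%) and lowest in coding sequence (24.0%, flanks 20.7%).

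The B box sequence GTTCGANNC, searched on both strands in the same windows, was at 84 member summits (2.29%) and 20 flanks (0.545%). It was at 4.38% of reproducible summits, 1.47% of the regions next below, 1.62% of all pooled regions and 0.749% of genome windows. A match to these letters describes the sequence and is not a binding site by itself.

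Members were spread over all chromosomes. Their density was highest on chromosome III, at 42.2 per Mb, followed by I at 40.7, X at 40.1, II at 39.99, V at 30.6 and IV at 29.4. The X chromosome held 711 members (19.4%), against 22.6% of the reproducible set (odds ratio 0.825, adjusted p 0.00532) and 16.4% of the regions next below (odds ratio 1.22, adjusted p 0.00227). The first of these was 0.884 with an adjusted p of 0.0939 when ranked in replicate 1 alone. The second was 1.13 (adjusted p 0.0664) in replicate 4 alone and 1.10 (adjusted p 0.172) in replicate 1 alone, so neither X difference held in every list. Along the autosomes, the density in the central of 3 equal segments was 1.13 times that of the outer ones, against 1.58 in the reproducible set and 0.991 in the regions next below.

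No member lay at the gene whose product was tagged. Around the native ceh-27 locus on chromosome V (11661549 to 11665102) no pooled region was within 1000 bp, and the nearest summit was 22771 bp away at rank 480. Within 50000 bp there were 21 pooled regions, of which 3 were members. At unc-119 on chromosome III, the marker gene of the strain, 2 pooled regions lay within 1000 bp, and the one inside it ranked 17721 with a signal of 35.7, below the members. Both genes are present as transgene copies in the strain, and how reads from those copies were treated is not stated in the labels.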

How the data were processed

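ChIP-seq region lists of 2 biological replicates of 1 group were used. The authors deposited 4 lists on ce11, per the labels: 1 per replicate, 1 from both replicates pooled, and the IDR set. Their deposited values are a signal of unstated scale and a −log10 q value for each region. The aligner, caller and IDR cutoff were not given in the sources used here. No list holds read counts, so depth is unknown and intervals cover counting error over regions only.

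The members, lists and tests were chosen with earlier results of these data known. Pooled regions were ranked by signal and compared with the reproducible set and with as many regions next below. Coordinates are counted from 1. Genes came from Ensembl release 115, tRNA products from RefSeq, and sequence from WBcel235, whose chromosome lengths contain every region. A summit was placed in 5' untranslated, coding or 3' untranslated sequence of protein-coding genes, in that order, then intron, then intergenic; 5 members in other exons belong to none of these classes. Many annotated 5' ends in C. elegans are trans-splice sites. A replicate alone means the same ranks in that replicate's own list.

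Region classes used Fisher's exact test (two-sided, Benjamini-Hochberg at 0.05), and AAGTG against its flank an exact McNemar test. Fisher's test and the motif search were tried on simulated data, and the McNemar test was not. Gene lists, noncoding genes and replicate support are counts. Named regions were the 10 strongest and 5 weakest members, 5 regions outside each edge, the 10 of best poorer replicate rank, the 3 strongest absent from each replicate, 4 genes per list at 1.5 times the share of all genes or more (otherwise at most 2), 3 per noncoding class, ceh-27 and unc-119. Printed sequences were the 6 strongest with AAGTG and the 3 strongest at tRNA genes, outside chromosome I, passing over 1 window with untranslated sequence. Coding members by gene, base composition, GTTCGANNC, tRNA products and chromosome segments were added after values were seen. Alternatives covered promoter width, edges, matching, each replicate alone and motif settings. The software was scipy 1.17.1, pandas 2.3.3, matplotlib 3.10.9 and numpy 2.4.6 under Python 3.11.15.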

Additional observations from a re-analysis of the deposited data

How the results depend on the processing

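The promoter odds ratios and the AAGTG excess over the flank kept their direction and passed the test under every alternative run. With each replicate's own list, AAGTG against the reproducible set changed direction, at 0.931 to 0.946, and against the regions next below it was 1.09, which did not pass. Ending the members at rank 4000 gave 1.14 for the latter (adjusted p 0.0989), 3 region classes past the threshold against the regions next below in place of 5, 807 protein-coding genes and 410 noncoding genes. Counting noncoding genes only with a summit inside gave 419. Support in both lists was 44.9% at 50 bp, 81.8% at 200 bp, 78.5% by reciprocal overlap and 15.1% within the top 6000. The stricter edge changes the number of regions and the comparison set together, and the cause of these shifts was not tested. Region classes whose main odds ratio did not pass changed direction as follows. Over the single replicates, introns ranged from 0.991 to 1.18 against the reproducible set and from 0.996 to 1.05 against the regions next below (0.953 at rank 4000). The 5' untranslated class against the reproducible set ranged from 0.905 to 1.02 (1.01 at rank 4000, 1.00 for members in both lists). The 3' untranslated class against the regions next below ranged from 0.774 to 1.02 (1.36 at rank 4000). Leaving out a replicate gave 1366 to 1540 protein-coding genes, 741 to 766 noncoding genes, 6 to 8 classes past the threshold against the reproducible set, promoter odds ratios of 0.426 to 0.468 and 1.22 to 1.31 against the sets above and below, and AAGTG odds ratios over the flank of 1.34 to 1.46. No paired analysis was possible because there was 1 group. Unknown read depth limits every comparison of signal.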
